A study of Mus musculus with 12 samples.

Results

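The 9 genes described here encode adrenergic receptors, adenylyl cyclases and cyclic nucleotide phosphodiesterases of the heart. They were chosen by name, with earlier results of these data known. They are the receptors Adra1a, Adra1b and Adrb1, the cyclases Adcy5 and Adcy6, and the phosphodiesterases Pde3a, Pde4d, Pde4b and Pde1c. All 9 were present in both count tables, which shared 16673 genes, and all passed the filter on low counts in every comparison.

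The study deleted Ddx5, the gene of a DEAD-box RNA helicase, in cardiomyocytes and sequenced polyadenylated RNA of left ventricles, all from male mice, as 4 groups with 3 libraries each. The constitutive knockout (mCKO) was DDX5fl/fl with MYH6Cre+, untreated and 8 weeks old, and its controls (CTR1) were untreated Ddx5flox/flox mice of the same age. The inducible knockout (iCKO) was Ddx5flox/flox with Myh6MerCreMer, given tamoxifen intraperitoneally at 20 mg/kg/day for 5 days, and its controls (CTR2) were Ddx5flox/flox mice given the same tamoxifen. The design text places collection of the inducible knockout after 7 days of tamoxifen injection, and the labels give no age for the inducible experiment. Myh6 is a cardiomyocyte gene, so other cell types of the ventricle keep Ddx5 by design, and since neither control group carries a Cre, an effect of Cre and one of Ddx5 loss cannot be told apart. Nothing in the labels states that replicates came from different animals, so p-values here measure the spread between libraries, which may be technical.

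Noradrenaline and adrenaline act on cardiomyocytes through beta and alpha-1 adrenergic receptors. Beta-1 receptors, encoded by Adrb1, couple to Gs, which stimulates adenylyl cyclases 5 and 6 (Adcy5, Adcy6), the main cyclases of cardiomyocytes, to make cyclic AMP. Cyclic AMP activates protein kinase A, which phosphorylates calcium-handling and contractile proteins and so strengthens contraction and speeds relaxation. Alpha-1 receptors, encoded by Adra1a and Adra1b, couple to Gq and phospholipase C. Phosphodiesterases break cyclic nucleotides down in local pools. Those of Pde3a, Pde4d, Pde4b and Pde1c all hydrolyse cyclic AMP, and that of Pde1c is activated by calcium and calmodulin.

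In RefSeq on GRCm38.p6, Adra1a lies at chr14:66635251-66771240, Adra1b at chr11:43774605-43901250 and Adrb1 at chr19:56722117-56725150. Adcy5 lies at chr16:35154494-35305743 and Adcy6 at chr15:98589978-98610287. Pde3a lies at chr6:141249269-141506862, Pde1c at chr6:56069798-56652510, Pde4d at chr13:108654177-109955969 and Pde4b at chr4:102087332-102607275. All are protein-coding genes. In GENCODE M21, 605 exon bases of Adcy6 and 741 of Pde3a are shared with a gene on the opposite strand, and the sources used here do not state whether the strand was used in counting. The other 7 members share no exon base with another gene.

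Genes that cyclic AMP switches on often carry the cyclic AMP response element TGACGTCA or its core TGACG near their start. RefSeq promoter windows of 300 bases, reaching from 250 bases before a start to 50 after it, matched 6 of the 9 members with 12 windows in all. Of the windows matched, the most 5′ one on GRCm38.p6 is shown for 4 members. Pde4b and Pde1c were chosen because they moved against the other phosphodiesterases in 1 model each. Adra1b was the member with separate groups in the constitutive model, and Adrb1 passed the test in neither. Pde4b had 4 windows and Pde1c had 3, and those shown lie well inside the gene spans given above. No window covered the 5′ end of either span. Sequences are written 5′ to 3′ along the gene, and capitals mark the core on either strand (TGACG or CGTCA).
Pde4b, chr4:102421305-102421604, plus strand: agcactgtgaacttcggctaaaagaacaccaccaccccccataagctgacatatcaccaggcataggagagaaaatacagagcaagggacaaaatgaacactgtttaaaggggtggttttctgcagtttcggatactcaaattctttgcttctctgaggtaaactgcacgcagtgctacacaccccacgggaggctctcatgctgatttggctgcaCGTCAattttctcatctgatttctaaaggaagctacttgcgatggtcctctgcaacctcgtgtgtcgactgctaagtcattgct
Pde1c, chr6:56369585-56369884, minus strand: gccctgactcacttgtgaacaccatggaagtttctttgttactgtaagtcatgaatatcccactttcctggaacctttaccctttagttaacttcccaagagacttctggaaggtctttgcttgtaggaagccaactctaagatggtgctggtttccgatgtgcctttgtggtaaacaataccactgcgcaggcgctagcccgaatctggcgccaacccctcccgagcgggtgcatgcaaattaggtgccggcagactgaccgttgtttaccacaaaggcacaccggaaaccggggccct
Adra1b, chr11:43901188-43901487, minus strand: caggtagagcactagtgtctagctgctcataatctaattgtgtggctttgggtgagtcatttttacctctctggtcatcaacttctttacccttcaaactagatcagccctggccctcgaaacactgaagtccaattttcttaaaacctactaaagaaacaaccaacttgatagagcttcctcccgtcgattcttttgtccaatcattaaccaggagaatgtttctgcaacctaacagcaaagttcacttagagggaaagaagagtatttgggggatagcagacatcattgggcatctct
Adrb1, chr19:56721867-56722166, plus strand: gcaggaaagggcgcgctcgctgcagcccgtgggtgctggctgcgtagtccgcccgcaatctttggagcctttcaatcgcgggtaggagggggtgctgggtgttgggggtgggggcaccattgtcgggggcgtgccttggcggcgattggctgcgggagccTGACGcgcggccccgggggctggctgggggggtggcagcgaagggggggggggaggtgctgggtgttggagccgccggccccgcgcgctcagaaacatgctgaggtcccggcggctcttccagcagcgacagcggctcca

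The core was found in these windows of Pde4b and Adrb1 and in none of the other 10 member windows. Of 32851 promoter windows of the same length, 20.81% held the core on either strand and 1.79% held the full TGACGTCA, which no member window held. Every full match also counts as a core match. GC content was 47% in the Pde4b window shown, 51.3% in that of Pde1c, 42.3% in that of Adra1b and 72.3% in that of Adrb1, against a median of 52.7% over all windows.

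The libraries held 19682268 to 25871882 counts. Ddx5, the deleted gene, was at 218 to 233 CPM (counts scaled by the TMM-adjusted library size) in mCKO libraries against 396 to 636 in CTR1, and at 192 to 219 in iCKO libraries against 566 to 696 in CTR2. Library 3 stood apart in 3 of the groups: all 9 members were lower in mCKO replicate 3 than the mean of replicates 1 and 2 (median log2 difference -0.44), as were 8 of 9 in CTR1 replicate 3 (-0.30) and 9 of 9 in iCKO replicate 3 (-0.67), against 4 of 9 in CTR2 replicate 3 (0.15). In the constitutive model, deviations from the group means correlated between libraries with the same number. Replicates 1 and 2 also correlated across numbers, so what the data pair is replicate 3. Results of that model are given without and with the replicate number as a block. The 10 cardiomyocyte markers, Myh6 and Ttn among them, were all detected in every library.

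**Figure D1:**
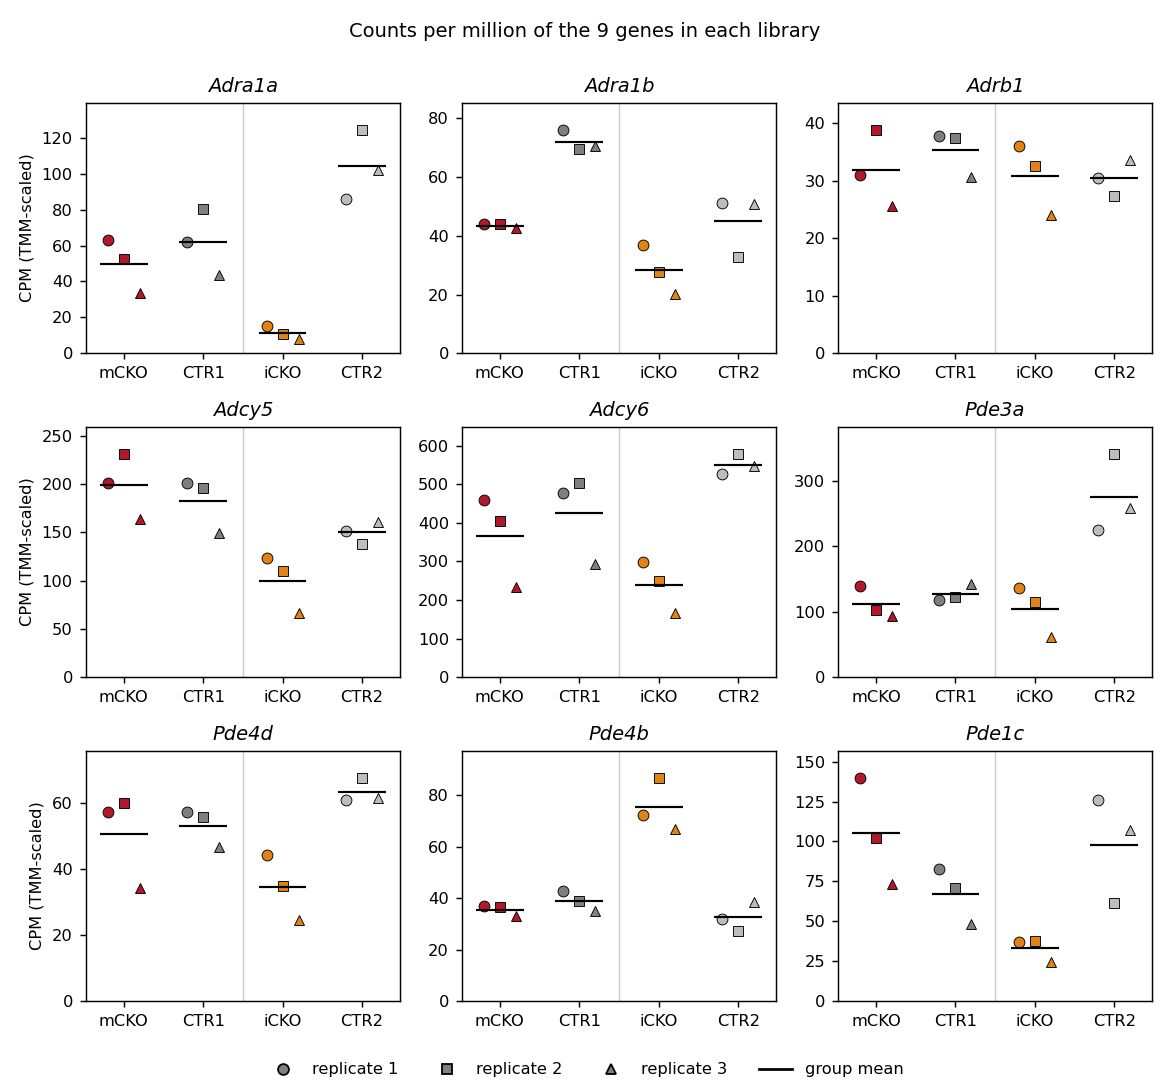
Level of each of the 9 genes in each library, in TMM-scaled CPM on linear axes that start at 0, with 1 point per library, its replicate number as the symbol and a bar at the group mean (n = 3). Adra1a lies at 8.16 to 15.3 CPM in iCKO against 86.0 to 124 CPM in CTR2, Pde4b is higher in every iCKO library than in any CTR2 library, and Adra1b is lower in every mCKO library than in any CTR1 library.

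The inducible knockout changed most of these genes. By edgeR's quasi-likelihood test with Benjamini-Hochberg adjustment over all 13548 genes tested, 5 of the 9 fell (Adra1a, Adcy6, Pde3a, Pde4d and Pde1c), 1 rose (Pde4b), and Adra1b, Adcy5 and Adrb1 did not pass. In that comparison 44.8% of all genes tested were called, 25.2% higher and 19.5% lower, so a call by itself does not set a member apart from the other genes. Groups did not overlap for 7 of the 9 members, 6 lower and 1 higher, beside 58.9% of all genes (27.0% lower and 31.9% higher). With library sizes alone in place of TMM they did not overlap for 6, 5 lower and 1 higher, and the share of all genes was not computed there. With the replicate number as a block, 7 of 9 were called, Adra1b joining the lower ones, beside 40.5% of all genes (22.5% higher and 18.0% lower). Fewer members were called in the constitutive model, and fewer of all genes. Without the replicate block none of 9 was called, beside 0% of 13353 genes (1164 had an unadjusted p under 0.05, by edgeR). The deleted gene Ddx5 was not called there either (log2 fold change -1.29, adjusted p = 0.17, edgeR). It was called with the block (-1.26, adjusted p = 0.0019, edgeR). The lower number of calls in this model thus does not by itself show a smaller effect on the members. With the block 2 of 9 were called, Adra1b lower and Pde1c higher, beside 13.8% of genes, 7.32% higher and 6.45% lower. DESeq2 without the block called 1 of the 9 and 310 of all genes. With library sizes alone in place of TMM, the median log2 fold change over all genes was 0.24 in iCKO (0.03 with TMM) and 71.5% of called genes were higher (56.4% with TMM). The same change of scaling in mCKO with the block gave a median of 0.08 (0.00 with TMM) and 76.9% higher (53.2% with TMM), and the called members had the same directions under each scaling.

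**Figure D2:**
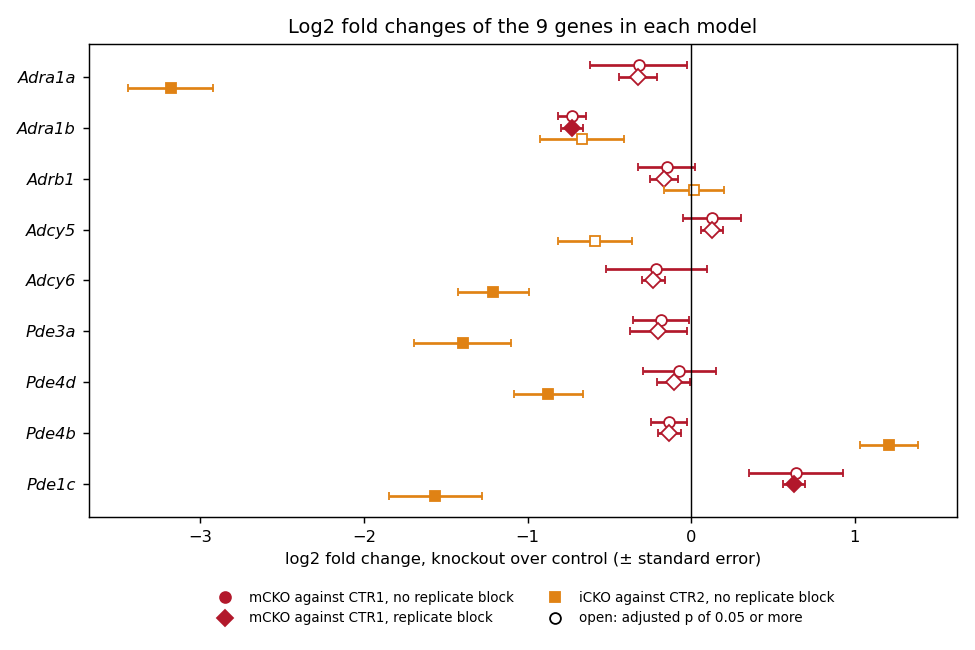
Log2 fold change of knockout over control for each of the 9 genes, with its standard error, from edgeR fits. Filled symbols have an adjusted p under 0.05, circles and diamonds are mCKO against CTR1 without and with the replicate block, and squares are iCKO against CTR2. Filled symbols lie on opposite sides of 0 for Pde1c (0.63 in mCKO with the block, -1.56 in iCKO), and the values farthest from 0 on either side are those of Adra1a (-3.18) and Pde4b (1.21) in iCKO.

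Adra1a, the alpha-1A receptor that couples to Gq, showed the largest change of the 9 in the inducible model. It stood at 15.3, 11.0 and 8.16 CPM in iCKO libraries against 86.0, 124 and 102 CPM in CTR2 libraries. The groups were far apart, the mean in iCKO being 11.0% of that in CTR2, or 9.08-fold lower. The log2 fold change was -3.18 ± 0.26 (standard error, as after every later ±, unless SD is named; edgeR, adjusted p = 9.6e-05). Under constitutive deletion Adra1a was at 63.1, 52.4 and 33.4 CPM in mCKO libraries against 62.0, 80.2 and 43.7 CPM in CTR1 libraries. Those groups overlapped, and the log2 fold change of -0.32 ± 0.30 did not pass (edgeR, adjusted p = 0.90 without and 0.12 with the block). Over 17 alternatives it was -0.54 to -0.09, with an adjusted p as low as 4.6e-04 (edgeR and others), so whether it changed there depends on the setting. The effect in mCKO minus that in iCKO was 2.91 ± 0.41 on the log2 scale (edgeR, adjusted p = 7.0e-04), in a comparison of 13871 genes in which 20.8% were called, 11.0% with a positive sign and 9.88% with a negative one.

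Adra1b, the alpha-1B receptor, which also couples to Gq, was the one member whose groups did not overlap in the constitutive model. It stood at 43.8, 44.0 and 42.6 CPM in mCKO libraries against 76.1, 69.4 and 70.5 CPM in CTR1 libraries. Every mCKO library was lower, at 0.576, 0.633 and 0.605 times its same-numbered control, and groups failed to overlap for 1 of 9 members, beside 15.0% of all genes tested (7.69% higher and 7.30% lower). The log2 fold change was -0.73 ± 0.09 without the block, which missed the threshold (edgeR, adjusted p = 0.094), and -0.73 ± 0.07 with it (adjusted p = 1.1e-04). Without both replicate 3 libraries it was -0.73 ± 0.08 with no block (edgeR, adjusted p = 0.0017). In the inducible model Adra1b was at 36.9, 27.7 and 20.1 CPM in iCKO libraries against 51.1, 32.8 and 50.8 CPM in CTR2 libraries. CTR2 replicate 2 lay below iCKO replicate 1, so the groups overlapped, and the log2 fold change of -0.67 ± 0.26 did not pass (edgeR, adjusted p = 0.062). The effects in the models differed by -0.02 ± 0.29 (edgeR, adjusted p = 0.98).

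Adrb1, the beta-1 receptor that couples to Gs, passed in neither model. It stood at 30.9, 38.8 and 25.6 CPM in mCKO libraries against 37.7, 37.4 and 30.6 CPM in CTR1 libraries, with overlapping groups (log2 fold change -0.15 ± 0.18; edgeR, adjusted p = 0.94 without and 0.24 with the block). It stood at 36.1, 32.5 and 24.0 CPM in iCKO libraries against 30.5, 27.3 and 33.7 CPM in CTR2 libraries, again overlapping. The group means there were 30.9 ± 6.2 CPM in iCKO and 30.5 ± 3.2 CPM in CTR2 (SD, n = 3 each), and the log2 fold change was 0.02 ± 0.18 (edgeR, adjusted p = 0.94).

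The makeup of the receptor transcripts, measured as each gene's share of the summed CPM per kilobase of exon, differed between iCKO and CTR2. Adra1a made up 13.6 ± 0.27% of Adra1a plus Adra1b in iCKO and 47.6 ± 10.6% in CTR2 (SD, n = 3 each). Adrb1 made up 49.0 ± 2.8% of the 3 receptors in iCKO and 26.3 ± 0.98% in CTR2 (SD, n = 3 each). Neither pair of groups overlapped, and each gave p = 0.1 by a two-sided exact permutation test, the smallest value 3 against 3 libraries can give. These shares restate the fall of Adra1a given above and are no separate support for it. The level of Adrb1 itself was 30.9 CPM in iCKO and 30.5 CPM in CTR2. In the constitutive model the share of Adrb1 was 33.5 ± 3.6% in mCKO and 26.8 ± 0.76% in CTR1, also without overlap (SD, n = 3 each; exact permutation p = 0.1), while that of Adra1a of the alpha-1 pair was 30.2 ± 6.4% in mCKO and 24.8 ± 5.8% in CTR1 (SD, n = 3 each), with overlap. The mean level of Adrb1 was 31.8 CPM in mCKO and 35.3 CPM in CTR1, and that of Adra1b was 43.5 and 72.0 CPM. The higher share of Adrb1 in mCKO is thus not a higher level of Adrb1.

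Among the cyclases, Adcy6 was the more abundant in every group and Adcy5 the less changed in iCKO. Adcy6 stood at 299, 250 and 167 CPM in iCKO libraries against 527, 579 and 546 CPM in CTR2 libraries. All iCKO values lay below all CTR2 values, and the log2 fold change was -1.21 ± 0.22 (edgeR, adjusted p = 0.0027). Under constitutive deletion it stood at 461, 404 and 235 CPM in mCKO libraries against 476, 503 and 295 CPM in CTR1 libraries. The groups overlapped, each mCKO library was below its same-numbered control, and the log2 fold change of -0.21 ± 0.31 did not pass (edgeR, adjusted p = 0.96 without and 0.056 with the block).

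Adcy5 stood at 123, 110 and 66.1 CPM in iCKO libraries against 151, 138 and 161 CPM in CTR2 libraries. The groups did not overlap, but the log2 fold change of -0.59 ± 0.23 missed the threshold (edgeR, adjusted p = 0.065 without and 0.061 with the block). Over 17 alternatives it was -0.81 to -0.36, with adjusted p of 0.020 to 0.24 (edgeR and others). It was -0.40 ± 0.11 and called without iCKO replicate 3, the lowest library (edgeR, adjusted p = 0.020). In the constitutive model Adcy5 was at 201, 231 and 164 CPM in mCKO libraries against 200, 196 and 149 CPM in CTR1 libraries. Those groups overlapped (log2 fold change 0.13 ± 0.18; edgeR, adjusted p = 0.96 without and 0.26 with the block). Of Adcy5 plus Adcy6 per kilobase, Adcy5 made up 28.2 ± 1.1% in iCKO and 20.5 ± 1.8% in CTR2 (SD, n = 3 each), with no overlap (exact permutation p = 0.1, the smallest possible).

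The difference between the models missed the threshold for both cyclases without the block, at 1.04 ± 0.39 for Adcy6 (edgeR, adjusted p = 0.076) and 0.76 ± 0.30 for Adcy5 (edgeR, adjusted p = 0.090). With the block, where 28.1% of genes were called in that comparison (14.8% positive and 13.3% negative) and 7 of the 9 members were, both passed, at 1.05 ± 0.23 for Adcy6 (edgeR, adjusted p = 0.010) and 0.79 ± 0.26 for Adcy5 (edgeR, adjusted p = 0.047). Both values are positive because the effect in iCKO was the lower one.

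The 4 phosphodiesterases moved apart from each other. Pde4b rose in the inducible model while Pde3a, Pde4d and Pde1c fell there, and Pde1c rose in the constitutive model with the block. Pde4b stood at 72.5, 86.8 and 66.7 CPM in iCKO libraries against 31.9, 27.3 and 38.5 CPM in CTR2 libraries. Its lowest iCKO library was above the highest CTR2 library, the means differed 2.31-fold, and the log2 fold change was 1.21 ± 0.18 (edgeR, adjusted p = 0.0010). Constitutive deletion left Pde4b at 36.8, 36.5 and 33.0 CPM in mCKO libraries against 43.0, 38.8 and 35.0 CPM in CTR1 libraries. Groups overlapped there (log2 fold change -0.14 ± 0.11; edgeR, adjusted p = 0.88 without and 0.26 with the block), and the difference between the models was -1.31 ± 0.21 (edgeR, adjusted p = 0.0016).

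Pde1c, the calcium and calmodulin dependent enzyme, went opposite ways in the models. It stood at 140, 102 and 73.1 CPM in mCKO libraries against 82.6, 71.1 and 48.6 CPM in CTR1 libraries. The groups overlapped through mCKO replicate 3 and CTR1 replicate 1, yet each mCKO library was higher than its same-numbered control, at 1.69, 1.44 and 1.504 times its level. The log2 fold change was 0.64 ± 0.29 without the block, which did not pass (edgeR, adjusted p = 0.60), and 0.63 ± 0.07 with it (adjusted p = 3.1e-04). Without both replicate 3 libraries and with no block it was 0.66 ± 0.17 (edgeR, adjusted p = 0.094). In the inducible model Pde1c was at 37.3, 37.6 and 24.6 CPM in iCKO libraries against 126, 61.2 and 107 CPM in CTR2 libraries. Those groups did not overlap (log2 fold change -1.56 ± 0.28; edgeR, adjusted p = 0.0028), and the difference between the models was 2.25 ± 0.43 (edgeR, adjusted p = 0.0041).

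Pde3a, whose product is a phosphodiesterase that milrinone inhibits, stood at 136, 116 and 62.0 CPM in iCKO libraries against 225, 342 and 259 CPM in CTR2 libraries. All iCKO libraries were lower (log2 fold change -1.40 ± 0.29; edgeR, adjusted p = 0.0056). The mCKO libraries held 139, 103 and 94.2 CPM against 118, 122 and 143 CPM in CTR1 libraries, with overlap (log2 fold change -0.18 ± 0.17; edgeR, adjusted p = 0.91 without and 0.53 with the block). The difference between the models was 1.26 ± 0.36 (edgeR, adjusted p = 0.029), and it lost its call in 10 of the 23 alternative settings.

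Pde4d, a cyclic AMP specific enzyme found near the ryanodine receptor, stood at 44.2, 34.7 and 24.6 CPM in iCKO libraries against 60.9, 67.6 and 61.3 CPM in CTR2 libraries. The groups did not overlap (log2 fold change -0.87 ± 0.21; edgeR, adjusted p = 0.010). The mCKO libraries held 57.3, 59.9 and 34.3 CPM against 57.1, 55.7 and 46.5 CPM in CTR1 libraries, with overlap (log2 fold change -0.07 ± 0.22; edgeR, adjusted p = 0.99 without and 0.55 with the block). The difference between the models, 0.84 ± 0.32, missed the threshold without the block (edgeR, adjusted p = 0.078) and passed with it (adjusted p = 0.031).

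Of the summed CPM per kilobase of these 4 phosphodiesterases, Pde4b took 36.9 ± 7.0% in iCKO and 8.94 ± 1.95% in CTR2 (SD, n = 3 each). Pde3a took 40.3 ± 6.3% in iCKO and 61.6 ± 7.9% in CTR2 (SD, n = 3 each). Both shares separated the groups (exact permutation p = 0.1 for each, the smallest possible), whereas the shares of Pde4d and Pde1c overlapped in that model. In the constitutive model the share of Pde1c was 23.9 ± 2.6% in mCKO and 15.6 ± 3.5% in CTR1 (SD, n = 3 each), without overlap (exact permutation p = 0.1), and those of the other 3 overlapped. Shares of a sum move together, so a higher share of one gene lowers the others.

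**Figure D3:**
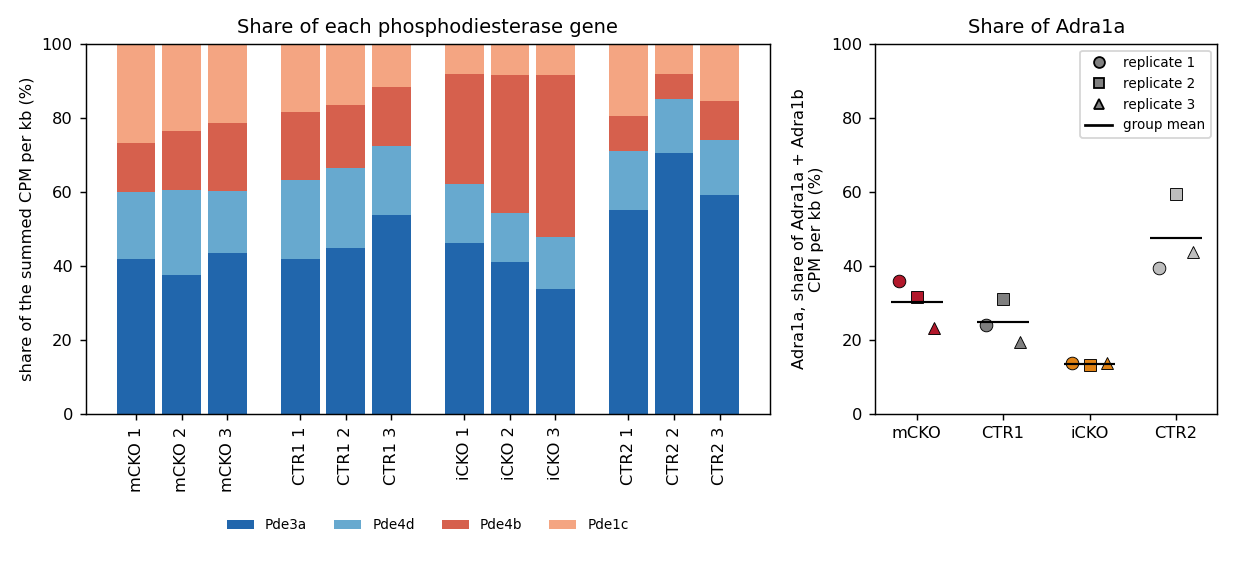
Left, share of Pde3a, Pde4d, Pde4b and Pde1c in their summed CPM per kilobase of exon, in percent, 1 stacked bar per library. Right, share of Adra1a in Adra1a plus Adra1b, in percent, 1 point per library with a bar at the group mean (n = 3). Pde4b takes 29.8 to 43.7% in iCKO against 6.79 to 10.6% in CTR2, and Adra1a takes 13.3 to 13.8% in iCKO against 39.5 to 59.5% in CTR2.

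In order of level per kilobase of exon, Adcy6 led in all 4 groups, with means of 54.0 ± 17.3 CPM per kilobase in mCKO, 62.6 ± 16.7 in CTR1, 35.2 ± 9.9 in iCKO and 81.2 ± 3.9 in CTR2 (SD, n = 3 each), and its range overlapped no other member's in any group. Adra1a was last in iCKO at 1.31 ± 0.41 CPM per kilobase, with a range that overlapped that of Pde1c above it, and in the fifth place in CTR2 at 11.9 ± 2.2, overlapping Adra1b above and Adrb1 below (SD, n = 3 each). Pde3a held the fifth place in iCKO at 8.20 ± 2.99 CPM per kilobase, with a range that overlapped Adra1b above and Pde4b below. It held the second place in CTR2 at 21.6 ± 4.7, overlapping Adcy5 below (SD, n = 3 each). Pde4b was sixth in iCKO at 7.13 ± 0.98, above Pde4d without overlap. It was last in CTR2 at 3.08 ± 0.54, overlapping Pde1c above (SD, n = 3 each). In the constitutive model the first 6 places, from Adcy6 through Adcy5, Adra1b, Adrb1 and Pde3a to Adra1a, were the same in mCKO and CTR1. Pde1c was seventh in mCKO at 5.24 ± 1.67 and last in CTR1 at 3.36 ± 0.86 CPM per kilobase (SD, n = 3 each), with a range that overlapped Adra1a above and Pde4d below in mCKO, and Pde4b above in CTR1.

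Markers of several cell types moved with the groups in which these genes changed. The marker counts called in iCKO stand beside 25.2% of all genes called higher and 19.5% called lower. The summed level of 10 cardiomyocyte markers was 53738 to 64498 CPM in iCKO against 96089 to 107856 in CTR2, with 6 of 10 called lower, none higher and none at 0 in any library. The 8 macrophage markers were all called higher, summing to 559 to 1010 CPM in iCKO against 212 to 270 in CTR2. Of 8 fibroblast markers 5 were called higher and 1 lower (2102 to 3260 CPM in iCKO against 852 to 968 in CTR2), and of 8 endothelial markers 5 were called lower, or 2 with library sizes alone (827 to 991 CPM in iCKO against 1321 to 1575 in CTR2). Of 8 smooth muscle and pericyte markers 3 were called higher and 2 lower, at 828 to 1136 CPM in iCKO against 1001 to 1077 in CTR2.

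In the constitutive model with the block, 5 of 10 cardiomyocyte markers were called lower (67707 to 99805 CPM in mCKO against 78560 to 111715 in CTR1) and all 8 macrophage markers higher (435 to 651 CPM in mCKO against 319 to 400 in CTR1). Fibroblast markers summed to 1023 to 1798 CPM in mCKO against 941 to 1516 in CTR1, with 4 of 8 called higher. Of 8 endothelial markers none was called there, and of 8 smooth muscle and pericyte markers 1 was called higher. These counts in mCKO stand beside 7.32% of all genes called higher and 6.45% called lower with the block. Over all libraries, sympathetic neuron and glia markers summed to 6.11 to 18.3 CPM and atrial myocyte markers to 32.9 to 69.4 CPM. Lymphocyte markers summed to at most 3.87 CPM and adipocyte markers to at most 13.9 CPM in any library. The part of these markers in the results for the 9 genes was not tested, and in RNA from whole ventricle fewer cells of a type and less RNA per cell cannot be told apart.

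Genes whose pattern over the 12 libraries was most like that of a member were found by the root mean square (RMS) difference of log2 CPM, centred on the own control group, among 11772 genes. For Adra1a these were Slc25a34 (RMS difference 0.21), Lrtm1 (0.22) and Pfkfb2 (0.24), beside an RMS deviation of Adra1a itself from its controls of 1.67. For Adra1b they were Cnnm2, Slc4a7 and Khdrbs3, all at 0.20 to 0.21. Adcy6 was nearest to Golga4 (0.097), Zfp113 (0.11) and Pcnt (0.11), Pde3a to Ppp1r3a, Klf12 and Galnt15 (0.17 each), and Pde4d to Osbp (0.083), Phf20l1 (0.10) and Fbxw7 (0.10). Pde4b was nearest to Mical2 (0.10), 2310022B05Rik (0.11) and Stk38l (0.12), and Pde1c to Pm20d1 (0.24), Ndrg4 (0.27) and Raver2 (0.28). These values describe shared patterns over the same libraries and carry no test.

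Of 120 other genes of adrenergic and cyclic AMP signalling in 11 lists, 119 were in the tables and 114 were tested in each model. In iCKO 23 were called higher and 25 lower, beside 25.2% higher and 19.5% lower of all genes tested, and their median log2 fold change was -0.03 beside 0.03 over all genes. With library sizes alone 35 were called higher and 21 lower, beside 33.9% and 13.5% of all genes. The counts of the single lists below stand beside these same shares, and nothing particular to a list is read from them. In mCKO none was called without the block, and 9 were called higher and 10 lower with it, beside 7.32% and 6.45% of all genes (10 higher and 8 lower with library sizes alone), with a median of 0.00 beside 0.00 over all genes. The difference between the models was called for 25 of 116, 20 of them positive and 5 negative, beside 20.8% of all genes, 11.0% positive and 9.88% negative. Without both replicate 3 libraries and with no block, 14 of the 114 were called in mCKO.

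**Figure D4:**
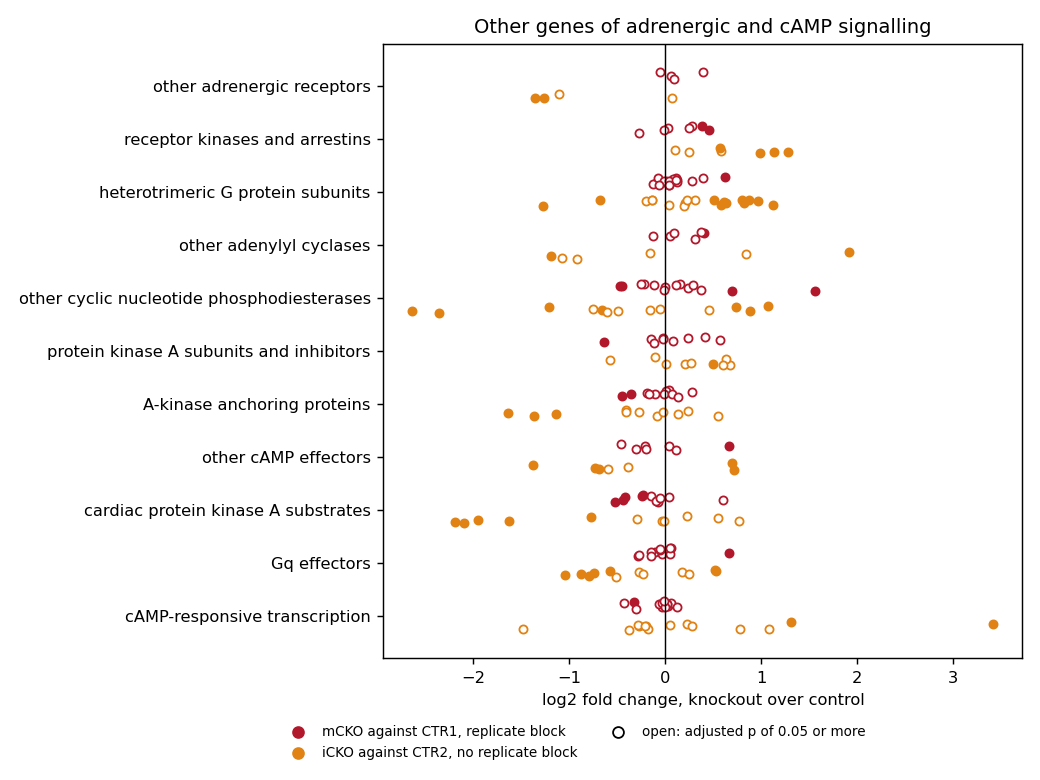
Log2 fold change of knockout over control for the other tested genes of adrenergic and cyclic AMP signalling except 1 that is not drawn, 1 row per list and 1 point per gene, from edgeR fits. Filled points have an adjusted p under 0.05, red is mCKO against CTR1 with the replicate block and orange is iCKO against CTR2. Orange points reach -2.63 for Pde4c and 3.42 for Fosb, while the farthest red point is Pde11a at 1.56.

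Receptor kinases and arrestins, which uncouple active receptors from G proteins, were called higher in iCKO for 4 of 7 genes and lower for none (6 and none with library sizes alone). Grk5, a receptor kinase abundant in the heart, stood at 180, 168 and 172 CPM in iCKO libraries against 59.7, 94.8 and 82.0 CPM in CTR2 libraries, with groups far apart (log2 fold change 1.14 ± 0.19; edgeR, adjusted p = 0.0018). Grk3 rose by 0.99 ± 0.24 and the arrestins Arrb1 and Arrb2 by 0.58 ± 0.15 and 1.28 ± 0.25 on the log2 scale (edgeR, adjusted p = 0.0098, 0.013 and 0.0041). In mCKO with the block 2 of 7 were called, Arrb1 at 0.38 ± 0.07 and Arrb2 at 0.45 ± 0.09 (edgeR, adjusted p = 0.0047 and 0.011; 0.75 and 0.27 without the block). Of the 6 other adrenergic receptors 4 were tested, and in iCKO the alpha-1D receptor gene Adra1d (-1.26 ± 0.33) and the alpha-2B receptor gene Adra2b (-1.35 ± 0.35) fell (edgeR, adjusted p = 0.014 and 0.015). Both are scarce, at 3.08 ± 0.35 CPM in iCKO and 7.39 ± 2.98 CPM in CTR2 for Adra1d and 0.639 ± 0.152 CPM in iCKO and 1.64 ± 0.43 CPM in CTR2 for Adra2b (SD, n = 3 each), and none of the 4 was called in mCKO in either fit.

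Of 19 heterotrimeric G protein subunits, 9 were called higher and 2 lower in iCKO, beside 25.2% and 19.5% of all genes (10 and 1 with library sizes alone). Without both replicate 3 libraries 5 were called higher and 2 lower. Gnai3 (0.87 ± 0.16) and Gnai1 (0.61 ± 0.18), which encode subunits of Gi, the class that inhibits adenylyl cyclases, and Gnb1 (0.97 ± 0.13), a beta subunit gene, were among those higher (edgeR, adjusted p = 0.0026, 0.025 and 7.8e-04), as was Gnao1, the Go alpha subunit gene (0.82 ± 0.16; edgeR, adjusted p = 0.0035). Gna12, an alpha subunit gene of the G12 class, fell by 1.27 ± 0.15 (edgeR, adjusted p = 3.7e-04) and shares 456 exon bases with Amz1 on the opposite strand. In mCKO with the block 1 of 19 was called, Gnai1 at 0.62 ± 0.14 (edgeR, adjusted p = 0.015; 0.33 without the block).

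Among 6 tested genes for other adenylyl cyclases, Adcy7 rose and Adcy9 fell in iCKO. Adcy7, known from blood cells and other non-muscle cells, stood at 46.9, 53.8 and 31.3 CPM in iCKO libraries against 14.7, 9.04 and 11.3 CPM in CTR2 libraries. The groups lay well apart (log2 fold change 1.91 ± 0.25 by edgeR, adjusted p = 6.7e-04). Macrophage markers were higher in iCKO too, as given above, and their part in the values of Adcy7 was not tested. In mCKO libraries Adcy7 was at 34.0, 34.1 and 26.9 CPM, against 25.5, 25.4 and 20.8 CPM in CTR1 libraries, without overlap (0.41 ± 0.14; edgeR, adjusted p = 0.48 without the block; 0.40 ± 0.08 and 0.0065 with it). Adcy9 fell by 1.19 ± 0.30 in iCKO (edgeR, adjusted p = 0.014).

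Of 13 other phosphodiesterase genes tested in iCKO, 3 were called higher and 4 lower (4 and 3 with library sizes alone, 1 and 3 without both replicate 3 libraries). Pde7a, a cyclic AMP specific enzyme gene, stood at 14.3, 15.4 and 8.90 CPM in iCKO libraries against 52.3, 80.7 and 64.0 CPM in CTR2 libraries (log2 fold change -2.35 ± 0.25; edgeR, adjusted p = 2.6e-04). Pde4c stood at 2.30, 1.23 and 1.34 CPM in iCKO libraries against 8.09, 12.3 and 9.89 CPM in CTR2 libraries (-2.63 ± 0.30; edgeR, adjusted p = 3.4e-04). Both showed groups far apart in iCKO and overlapping groups in mCKO, where neither was called in either fit. Pde4a fell in iCKO (-1.21 ± 0.33; edgeR, adjusted p = 0.018) and, with the block, in mCKO (-0.44 ± 0.08; edgeR, adjusted p = 0.0037; 0.36 without the block). Pde4a, Pde4c and Pde4d thus fell in iCKO while Pde4b, the remaining gene of that family, rose. Pde1a, which like Pde1c encodes a calcium and calmodulin dependent enzyme, rose in iCKO (1.07 ± 0.21; edgeR, adjusted p = 0.0041). Pde3b, the paralogue of Pde3a, rose in mCKO with the block (0.70 ± 0.15; edgeR, adjusted p = 0.012; 0.55 without the block), and Pde7b fell there (-0.47 ± 0.09; edgeR, adjusted p = 0.0080; 0.80 without the block).

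Pde11a, a scarce phosphodiesterase gene, stood at 1.27, 1.21 and 0.588 CPM in mCKO libraries against 0.489, 0.418 and 0.139 CPM in CTR1 libraries (1.54 ± 0.54; edgeR, adjusted p = 0.48 without the block; 1.56 ± 0.40 and 0.026 with it). In iCKO libraries it was at 0.0365, 0.0704 and 0.0745 CPM, each under the 3 counts that a count of 0 allows, against 0.354, 0.471 and 0.918 CPM in CTR2 libraries, and there it did not pass the filter on low counts. Pde2a, whose product cyclic GMP stimulates to hydrolyse cyclic AMP, fell in iCKO (-0.65 ± 0.17; edgeR, adjusted p = 0.013), but 3955 of its 6149 exon bases are shared with Gm45837 on the same strand, so its counts are uncertain.

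Of 9 genes for protein kinase A subunits and inhibitors, 1 was called in iCKO (3 higher with library sizes alone), and in mCKO 1 was called with the block and none without it. The gene called in iCKO was Prkar1a, a regulatory subunit, close to the threshold (0.50 ± 0.18; edgeR, adjusted p = 0.049). Pkia, an inhibitor of the catalytic subunit, stood at 227, 205 and 164 CPM in mCKO libraries against 346, 325 and 255 CPM in CTR1 libraries. Its mCKO libraries were all lower (-0.64 ± 0.18; edgeR, adjusted p = 0.35 without the block; -0.64 ± 0.06 and 1.7e-04 with it). Of 11 anchoring protein genes, 3 were called lower in iCKO and 2 in mCKO with the block. Pde4dip was at -1.63 ± 0.19 in iCKO and -0.45 ± 0.06 in mCKO with the block, and Akap1, which anchors the kinase at mitochondria, at -1.37 ± 0.26 in iCKO and -0.36 ± 0.07 in mCKO with the block (edgeR, adjusted p = 3.4e-04 and 0.0016 for Pde4dip, 0.0033 and 0.0076 for Akap1; 0.65 and 0.62 in mCKO without the block). Akap7 fell in iCKO as well (-1.14 ± 0.16; edgeR, adjusted p = 7.8e-04).

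Among 8 other cyclic AMP effectors, Hcn2, the gene of a channel that cyclic nucleotides open and that carries pacemaker current, differed between the models. It stood at 67.9, 76.5 and 63.6 CPM in mCKO libraries against 39.2, 51.3 and 41.1 CPM in CTR1 libraries. No mCKO library overlapped CTR1 (0.66 ± 0.14; edgeR, adjusted p = 0.24 without the block; 0.67 ± 0.07 and 2.5e-04 with it). Hcn2 stood at 14.0, 19.9 and 22.9 CPM in iCKO libraries against 38.5, 28.6 and 27.3 CPM in CTR2 libraries. It was lower there (-0.73 ± 0.22; edgeR, adjusted p = 0.027), and the difference between the models was 1.42 ± 0.29 (edgeR, adjusted p = 0.0053).

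Rapgef4, the gene of a guanine nucleotide exchange factor that cyclic AMP activates directly, fell in iCKO (-1.38 ± 0.21; edgeR, adjusted p = 0.0011) and was at 0.13 ± 0.14 in mCKO (edgeR, adjusted p = 0.93 without and 0.49 with the block). Its relative Rapgef3 fell in iCKO (-0.69 ± 0.17; edgeR, adjusted p = 0.010), and Popdc2, the gene of a cyclic AMP binding membrane protein, rose (0.71 ± 0.24; edgeR, adjusted p = 0.039).

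Of 11 cardiac substrates of protein kinase A, 5 were called lower and none higher in iCKO (5 lower and 2 higher with library sizes alone), and 4 lower and none higher in mCKO with the block (3 lower with library sizes alone). The ryanodine receptor gene Ryr2 was at -2.19 ± 0.27 in iCKO and -0.53 ± 0.06 in mCKO with the block (edgeR, adjusted p = 4.5e-04 and 3.2e-04; 0.58 in mCKO without the block). The L-type calcium channel gene Cacna1c was at -2.10 ± 0.25 in iCKO and -0.43 ± 0.09 in mCKO with the block (edgeR, adjusted p = 4.1e-04 and 0.011; 0.91 in mCKO without the block). Tnni3, cardiac troponin I, was at -1.63 ± 0.20 in iCKO and -0.42 ± 0.06 in mCKO with the block (edgeR, adjusted p = 4.2e-04 and 0.0010; 0.31 in mCKO without the block). Pln, phospholamban, the brake on the calcium pump, was at -1.94 ± 0.14 in iCKO (edgeR, adjusted p = 6.1e-05) and -0.14 ± 0.05 in mCKO with the block (edgeR, adjusted p = 0.098). It shares 1785 of its 2759 exon bases with genes on the opposite strand. The potassium channel gene Kcnq1 was called in mCKO with the block at -0.22 ± 0.07 (edgeR, adjusted p = 0.043; 0.70 without the block). Of the 10 cardiomyocyte markers, 6 were called lower in iCKO and 5 in mCKO with the block, and their part in these values was not tested.

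Of 12 effectors on the Gq side, downstream of the alpha-1 receptors, 1 was called higher and 5 lower in iCKO (2 and 4 with library sizes alone, none and 4 without both replicate 3 libraries). Prkcd, protein kinase C delta, stood at 32.7, 39.5 and 39.6 CPM in iCKO libraries against 22.2, 28.9 and 26.5 CPM in CTR2 libraries (0.53 ± 0.16; edgeR, adjusted p = 0.026). It stood at 40.9, 40.0 and 38.0 CPM in mCKO libraries against 25.1, 26.2 and 23.9 CPM in CTR1 libraries (0.66 ± 0.09; edgeR, adjusted p = 0.13 without the block; 0.66 ± 0.07 and 3.5e-04 with it). It was higher without overlap in both models and was the sole gene of this list called in mCKO with the block. Plcb1, a phospholipase C beta, fell in iCKO (-1.04 ± 0.24; edgeR, adjusted p = 0.0084), and so did the inositol trisphosphate receptor genes Itpr3 (-0.79 ± 0.16) and Itpr2 (-0.74 ± 0.18) and the kinase gene Prkd1 (-0.87 ± 0.22; edgeR, adjusted p = 0.0042, 0.011 and 0.013). Of 14 genes of cyclic AMP responsive transcription, Fosb (3.42 ± 0.36) and Nr4a2 (1.32 ± 0.38) were called higher in iCKO and none lower (edgeR, adjusted p = 2.2e-04 and 0.022; 3 higher with library sizes alone). Crtc1, a CREB coactivator gene, was the one called in mCKO with the block (-0.32 ± 0.08; edgeR, adjusted p = 0.028; 0.89 without the block). Both genes called in iCKO are scarce: Fosb was at 3.39 ± 0.69 CPM in iCKO and 0.310 ± 0.098 CPM in CTR2, and Nr4a2 at 4.49 ± 1.36 CPM in iCKO and 1.80 ± 0.83 CPM in CTR2 (SD, n = 3 each).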

How the data were processed

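Left ventricular RNA of male mice was sequenced as 12 libraries, 3 in each of 4 groups, and sample titles gave the group and the replicate number. Per the labels' protocols, Trizol was used for extraction and a stranded TruSeq mRNA kit for the libraries. Per the submitters' processing notes, HISAT2 and DESeq were used with the build GRCm38, without versions. How reads were counted (tool, gene annotation, use of strand) is not given in the sources used here. Whole-number raw counts were deposited by the authors, 1 table of 17260 genes for mCKO with CTR1 and another of 17325 for iCKO with CTR2.

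From those counts, CPM (TMM-scaled library sizes) and log2 fold changes were computed here. Genes kept by filterByExpr (minimum count 10, minimum total 15) were tested in R 4.3.3 by the robust quasi-likelihood method of edgeR 4.0.16, two-sided, with Benjamini-Hochberg adjustment over all genes tested and calls at 0.05. Each model was fitted against its own control, and 1 fit of all 12 libraries gave the effect in mCKO minus that in iCKO. The block was the replicate number. Across genes, deviations from the group means correlated between mCKO and CTR1 libraries of the same number (r = 0.464, 0.532 and 0.823 for numbers 1, 2 and 3, each above 0.1), so the block stands beside the mCKO results. Replicates 1 and 2 also correlated across numbers (0.553 and 0.529) and with number 3 at -0.623 to -0.680, so what the data pair is replicate 3. Each group of 3 was centred on its mean, so a replicate 3 apart in both groups makes replicates 1 and 2 correlate. The r of numbers 1 and 2 therefore does not show that they are paired. In the inducible model r was 0.058, -0.090 and -0.161, and the block is given in the closing section. What a number marks is not in the labels.

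The 9 genes, the pathway lists, the markers and the tests were chosen with earlier results of these data known. Other pathway genes named are those called in mCKO (without or with the block) or in iCKO, at most 4 per list and model with the smallest adjusted p, except 1 that is counted in its list but not reported here. Genes most alike had an average log2 CPM of at least 1. Levels per kilobase used GENCODE M21 exon unions, which include exons the heart may not use, and exon overlaps came from the same models. Alternatives were other size factors (RLE, or library sizes alone), no filter, DESeq2 1.42.0, limma-voom (limma 3.58.1), the block, and libraries left out. No pair of libraries in a group agreed within sampling noise. A count of 0 allows up to 3 counts, or 0.106 to 0.157 CPM, for counting error alone. The fits were tested on simulated counts.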

Additional observations from a re-analysis of the deposited data

Results flagged for a closer look

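For 27 of the genes named above, the effect in mCKO minus that in iCKO passed edgeR's test of the difference with Benjamini-Hochberg adjustment over all genes, where 20.8% of genes passed. A positive value means a higher log2 fold change in mCKO. Among the 9 genes these were Adra1a (2.91), Pde1c (2.25), Pde3a (1.26) and Pde4b (-1.31). Of the other receptor, kinase and G protein genes they were Adra1d (1.36), Gna12 (1.23), Gnb1 (-0.89) and Grk3 (-1.17, adjusted p = 0.0495). Of the other cyclase and phosphodiesterase genes they were Adcy7 (-1.47), Pde7a (2.17), Pde4c (2.36), Pde2a (0.69) and Pde11a (4.73), the last resting on 1 or 2 counts per iCKO library. Anchoring protein and effector genes were Pde4dip (1.24), Akap1 (1.05), Akap7 (0.99), Rapgef4 (1.55), Rapgef3 (0.77) and Hcn2 (1.42). Substrates were Pln (1.84), Cacna1c (1.75), Ryr2 (1.70) and Tnni3 (1.24). The remaining genes were Itpr3 (0.87), Itpr2 (0.83), Fosb (-4.42) and Nr4a2 (-1.73). Fosb was at 0.307 to 0.546 CPM in mCKO and 0.417 to 1.76 CPM in CTR1, where 1 library held the highest value. The models differ in Cre line, tamoxifen and time since deletion, so these cannot be told apart as sources of a difference.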

How the results depend on the processing

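The 6 members called in iCKO were called in the same direction in all 17 alternatives run, with log2 fold changes of -3.58 to -2.97 for Adra1a, -1.47 to -0.99 for Adcy6, -1.82 to -1.17 for Pde3a, -1.14 to -0.66 for Pde4d, 0.99 to 1.42 for Pde4b and -1.94 to -1.28 for Pde1c. The replicate block in iCKO changed the call of Adra1b alone among the members (-0.68, adjusted p = 0.047, edgeR). Among the pathway genes named, it ended the calls of Gnai1 (0.61, adjusted p = 0.064) and Prkar1a (0.52, adjusted p = 0.078, edgeR). With it 7 G protein genes, no protein kinase A gene and 4 genes of cyclic AMP responsive transcription were called higher in iCKO. In mCKO, edgeR called 0 members and 0 genes with RLE scaling, and 0 members and 4 genes with no filter on low counts. DESeq2 called 1 member, 6 pathway genes and 310 genes in all. The replicate block called 2 members, 19 pathway genes and 1839 genes, and the block with library sizes alone called 2, 18 and 2051. Without both replicate 3 libraries, 1 member, 14 pathway genes and 1040 genes were called. Leaving out 1 library at a time without the block, 0 to 1 genes were called. With the block and 1 replicate number left out, alternatives chosen after seeing the data, 2 to 5 members, 9 to 19 pathway genes and 385 to 1508 genes were called (2, 16 and 1093 without number 2). Over all 17 alternatives in mCKO the lowest adjusted p was 4.6e-04 for Adra1a, 0.011 for Adcy6 and 0.0057 for Pde3a (edgeR and others). Adcy5, Adrb1, Pde4b and Pde4d stayed above 0.05 in all of them. Between the models, 7 members were called with the block, 14 to 27 pathway genes with 1 library left out, and 1573 to 3176 genes with the block and 1 number left out (1749 without number 1). Library sizes alone gave 34.0% positive among genes called between the models (52.6% with TMM), with a median of -0.14.

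Changes of sign came in values that were not called. In mCKO, leaving out 1 library gave -0.00082 to 0.25 for Adcy5, -0.42 to 0.025 for Adcy6 and -0.22 to 0.14 for Pde4d. Without both replicate 3 libraries Pde3a was at 0.017 and Pde4d at 0.055, and the block without number 3 gave 0.0015 for Pde3a and 0.055 for Pde4d. In iCKO, Adrb1 was at -0.024 with RLE scaling and with DESeq2, at -0.11 to 0.13 with 1 library left out, and at -0.12 with the block and number 1 or 2 left out. Between the models, Adra1b ranged over -0.19 to 0.18 with 1 library left out and was at 0.13 and 0.17 with the block without numbers 1 and 2, and Adrb1 ranged over -0.35 to 0.016 with 1 library left out and was at 0.046 with the block without number 1. The difference for Pde3a lost its call in 10 of 23 alternatives (1.01 to 1.45, adjusted p = 0.0079 to 0.13, edgeR and others). The cause was not tested in any of these. Depth limits the scarce genes, Pde11a and Fosb among them.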
